A study of Mus musculus with 2 samples.

Results

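Conventional dendritic cells type 2 (cDC2) of the mouse liver were described here in single-cell RNA libraries of hepatic immune cells. The 315 cDC2 were selected on their own transcripts from the 25424 barcodes kept after a quality filter, 194 of 8086 in the control library and 121 of 17338 in the MC38 library. A member had at least 1 unique molecular identifier (UMI, the count of a captured molecule) of Flt3, at least 2 of Cd209a, Clec10a and Mgl2 summed and at least 20 of H2-Ab1. It also had at most 1 of Xcr1 and Clec9a summed, at most 2 of Siglech, none of Fscn1 and at most 1 of Cd3d, Cd3e and Cd3g summed.

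The libraries held liver mononuclear cells of C57BL/6 mice on day 14 after an injection into the spleen followed by splenectomy. The control group, labelled as without tumor, received buffer, and the MC38 group received 500000 MC38 cells, a mouse colon adenocarcinoma line that forms liver metastases by this route. Each group was 1 library made from 3 pooled mice, so no value here has a replicate check, and intervals cover counting error only. The sample titles end in SC and SC+liver, and the protocol, the same for both, also describes 3000000 MC38 cells under the skin. The labels do not state if control animals had a subcutaneous tumor as well. Hepatocytes were depleted by slow spins and density centrifugation before capture with a 5' kit.

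Conventional dendritic cells arise from bone marrow precursors under the growth factor receptor Flt3 and carry antigen to T cells. Type 1 cells (cDC1) take up dead cells and present their antigens to CD8+ T cells, while type 2 cells mainly prime CD4+ T cells through MHC class II. In tissues cDC2 are a mixed population that shares surface lectins and Sirpa with monocytes, from which they are told apart by Flt3 and high MHC class II.

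The library totals were 91617457 UMIs over 14258 control barcodes and 114421875 UMIs over 19822 MC38 barcodes. In the control library 43.1% of barcodes had over 20% mitochondrial UMIs and were left out, against 11.4% in the MC38 library. The cDC2 held 2306781 UMIs in the control against 1644332 in the MC38 library. Their median depth was 11010.5 UMIs and 2952 genes per control cell, and 12414 UMIs and 3255 genes per MC38 cell. The median mitochondrial share of their UMIs was 6.74% in control and 4.84% in MC38 cells. Across the libraries 63 barcodes were shared, among them 2 of the control and 1 of the MC38 members. A doublet caller marked 1 control barcode, 0.0124% of those kept, so it did not work there; in the MC38 library it marked 7.98% of kept barcodes and 9 of the 121 cDC2, and no call was removed from the main values.

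The genes named here were picked by their difference between cDC2 and cDC1 in both libraries, so their direction carries no support for the label. Among 5086 genes compared, 1.3% were at least 4-fold higher in cDC2 than in cDC1 in both libraries and 0.845% at least 4-fold lower; since the gate itself split these cells, the values are a description. Sirpa, a receptor for CD47 that marks cDC2, stood at 202 CPM (UMIs of a gene, scaled to a total of 1000000 UMIs) in control cDC2 against 10.4 in control cDC1, and at 201 against 19.4 in the MC38 library. The adaptor Dab2 was at 67.6 against 3.12 CPM in the control and at 224 against 20.0 in the MC38 library. Both ion channel genes Tmem176a and Tmem176b, the calcium-binding S100a4, the surface protein Cd7, the chemokine receptor Cx3cr1 and Ms4a4c were likewise higher in cDC2 than in cDC1 in both libraries. Not all of them set cDC2 apart from classical monocytes. In control monocytes Sirpa, S100a4, Cx3cr1 and Ms4a4c were at 319, 1895, 274 and 579 CPM, against 202, 1575, 98.0 and 430 in control cDC2. Sirpa, Cx3cr1 and Ms4a4c were also higher in monocytes of the MC38 library, while S100a4 was lower there. Dab2, Cd7, Tmem176a and Tmem176b were lower in monocytes than in cDC2 in both libraries. Irf8, the transcription factor on which cDC1 depend, was at 103 CPM in cDC2 and 2653 in cDC1 of the control, and at 160 and 2711 in the MC38 library. The sensor of double-stranded RNA Tlr3 stood at 2.60 and 2.43 CPM in cDC2 of the control and MC38 libraries against 180 and 182 in cDC1. The other genes lower in cDC2 under the naming rule were Gcsam, Rab7b, Plpp1, Snx22, Ppt1 and the adhesion molecule Cadm1.

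**Figure D1:**
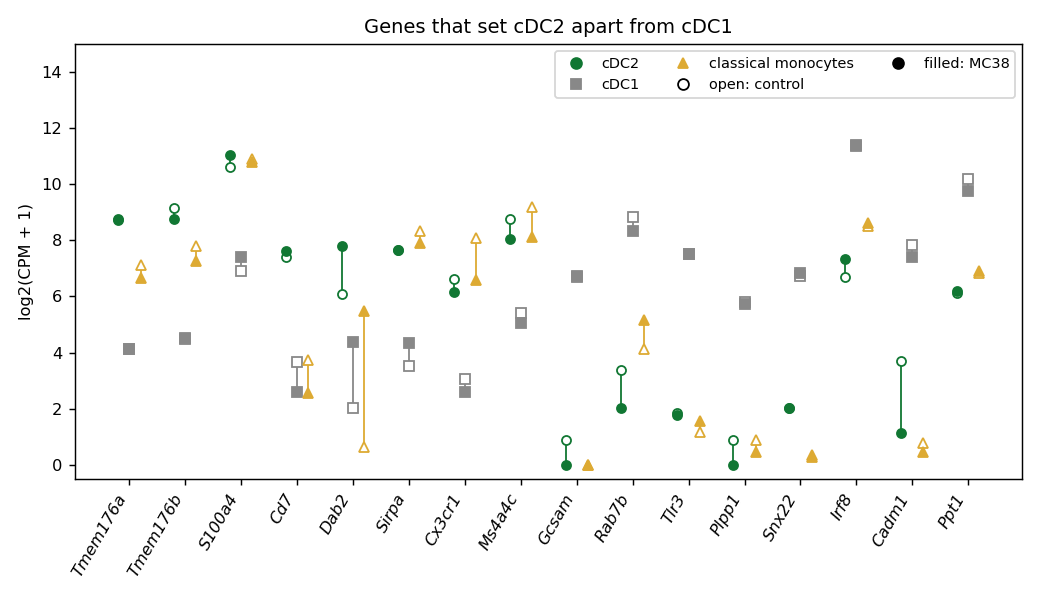
Level of 16 genes, as log2(CPM + 1) on the vertical axis, in cDC2 (circles), cDC1 (squares) and classical monocytes (triangles) of the control (open) and MC38 (filled) libraries. The 8 genes on the left are higher in cDC2 than in cDC1 in both libraries, and the 8 on the right are lower.

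Among genes outside the gate, Zbtb46, a transcription factor of conventional dendritic cells, stood at 42.0 CPM in the control against 35.9 in the MC38 library. Irf4, which acts in cDC2 development, was at 71.1 and 48.0 CPM, against 4.85 and 3.13 in cDC1. Esam and Clec4a4, markers of the Notch2-dependent subset of the spleen and gut, were rare: a UMI of either was found in 2.58% of control and 0.826% of MC38 cDC2, and Esam had none in the MC38 library. Clec12a or Cx3cr1, markers of the more monocyte-like subset, had a UMI of either in 74.7% and 54.5% of cDC2 and in 84.4% and 65.6% of cDC1.

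The gate genes themselves differed in their mix, which is given as a description because they chose the cells. Cd209a, a lectin of the DC-SIGN family, was at 820 CPM in the control against 257 in the MC38 library, with a UMI in 93.3% and 62.0% of members. Mgl2, a galactose-type lectin, was at 155 and 321 CPM, in 27.8% and 45.5% of members. Its near copy Clec10a was at 402 and 423 CPM, and reads shared by the pair cannot be told apart here. Members with Cd209a as their only detected lectin numbered 38 in the control against 2 in the MC38 library, while those with Clec10a alone numbered 7 and 20. Just inside the lectin threshold, at a sum of 2 UMIs, lay 13 control and 10 MC38 cells, and just outside it, at 1 UMI, lay 11 and 18. The Flt3 threshold cut through more cells: 85 control and 67 MC38 members had exactly 1 UMI, and 76 and 139 barcodes that met all other criteria had none.

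A smaller share of the MC38 library was cDC2. They made up 2.40% of kept control barcodes (exact binomial 95% interval 2.08 to 2.76) and 0.698% of kept MC38 barcodes (0.579 to 0.833), a log2 ratio of MC38 over control of -1.78 (-2.12 to -1.45). The size of the difference moved with the denominator. Of kept barcodes with at least 20 H2-Ab1 UMIs, cDC2 were 13.2% in the control against 7.90% in the MC38 library, a log2 ratio of -0.74. Of kept barcodes with a UMI of the leukocyte gene Ptprc they were 2.63% and 1.24%, a log2 ratio of -1.09. The cDC1 share was lower by a similar amount, at 2.23% and 0.554% of kept barcodes (log2 ratio -2.01), while mature dendritic cells were at 0.309% and 0.346% and classical monocytes at 9.36% and 19.2%. A share depends on every other cell in the library, so fewer cDC2 and more of other cells cannot be told apart.

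The mitochondrial filter touches these shares, because the libraries differed in it. In barcodes with up to 5% mitochondrial UMIs, cDC2 were 44 of 641 in the control (6.86%) and 67 of 6137 in the MC38 library (1.09%). Over 5% and up to 10%, they were 103 of 2924 (3.52%) and 44 of 6873 (0.640%). Over 10% and up to 20%, they were 47 of 4521 (1.04%) and 10 of 4328 (0.231%). The MC38 share was thus lower within each of the 3 strata that the filter kept.

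**Figure D2:**
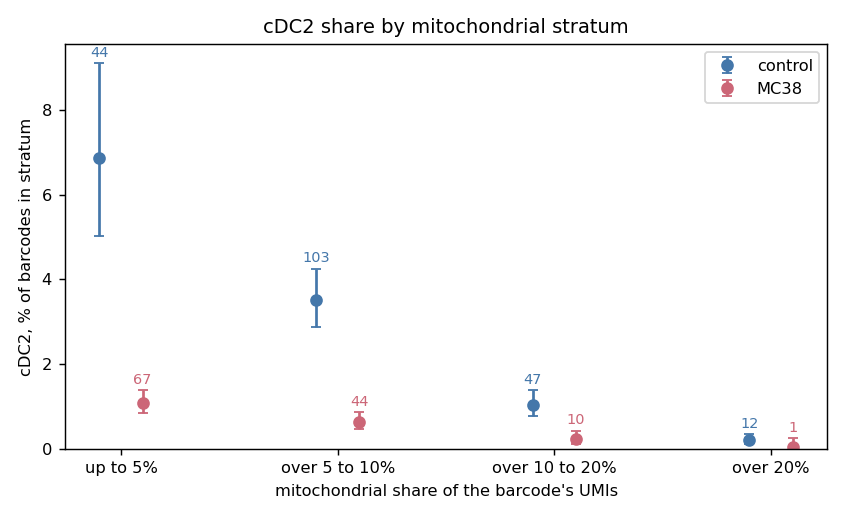
Share of barcodes that were cDC2, in percent, within strata of the mitochondrial share of UMIs, for the control (blue) and MC38 (red) libraries. Bars are exact binomial 95% intervals, numbers are cDC2 counts, and the MC38 point lies below the control point in every stratum, including the 12 and 1 cells over 20% that the filter removed.

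Within cDC2, RNA of a few membrane and secreted proteins differed far more than the bulk of genes. Of 5543 genes with a mean of at least 20 CPM over both libraries, 236 (4.26%) were at least 2-fold higher in the MC38 library and 119 (2.15%) at least 2-fold lower. The median log2 ratio over them was 0.03. These counts carry no test, and in the account below a gene called higher or lower is one whose CPM of summed UMIs differed at least 2-fold. Counts within gene lists are to be read beside these shares of all genes compared, and many rest on few genes.

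Ifitm1, an interferon-induced membrane protein of the family that restricts virus entry, differed in most cells. The 194 control cells ranged from 0 to 18 UMIs with a median of 0, and the 121 MC38 cells from 0 to 184 with a median of 31. Its level was 16.5 CPM in the control against 2629 in the MC38 library, a log2 ratio of 7.32 (6.86 to 7.82). A UMI was found in 8.25% of control and 95% of MC38 cDC2, against 1.78% and 6.45% of B cells, whose median depths were 3838.5 and 3113 UMIs. With each cell thinned to 2000 UMIs the shares were 2.58% and 88.4% in cDC2 and 0.813% and 3.34% in B cells. In cDC1 it was at 4.50 and 266 CPM, and in classical monocytes at 28.3 and 117. The family members Ifitm2, Ifitm3 and Ifitm6 had log2 ratios of 0.68, -0.08 and 0.09 in cDC2, although reads of such similar genes may be split uncertainly.

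Plet1, a membrane protein used as a marker of some epithelial and dendritic cell subsets, was close to absent from control cDC2. The control cells held 2 UMIs, both in 1 cell, and the MC38 cells 265, from 0 to 22 per cell. The level was 0.867 CPM in the control against 161 in the MC38 library, a log2 ratio of 7.54 with a wide interval of 5.67 to 10.59 because of the 2 control UMIs. A UMI was found in 33.9% of MC38 cDC2, against 0.442% of MC38 B cells. In cDC1 it was at 0 CPM in the control, where a count of 3 would be 1.04 CPM, and at 260 in the MC38 library.

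Clec4n, which encodes the fungal receptor Dectin-2, was at 3.90 CPM in control and 152 in MC38 cDC2, a log2 ratio of 5.28 (4.34 to 6.43). It was found in 3.61% and 50.4% of cells, against 0.889% and 5.21% of B cells. Cdh1, the epithelial adhesion molecule E-cadherin, was at 6.07 and 102 CPM, a log2 ratio of 4.06 (3.28 to 4.97). Neither gene showed such a level in MC38 cDC1, where Clec4n was at 2.50 CPM and Cdh1 at 1.88. Over all kept MC38 barcodes Cdh1 was at 14.5 CPM, below its level in cDC2.

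Il1r2, the decoy receptor that binds interleukin 1 without signalling, was at 9.54 CPM in control and 155 in MC38 cDC2, a log2 ratio of 4.02 (3.39 to 4.72). Il1b, a ligand of that receptor, was at 64.2 and 236 CPM, a log2 ratio of 1.88 (1.60 to 2.16). Both were thus higher in the MC38 library, although in members without Alb, Fabp1 or Ttr UMIs the log2 ratio of Il1b was 0.78. Gpr171, a G protein-coupled receptor, was at 13.4 and 173 CPM (log2 ratio 3.69) and at 34.3 and 127 in cDC1. The inhibitory receptors Cd300lf and Siglece were at 13.4 and 97.9 CPM, and at 11.7 and 82.7 CPM. The secreted protease Htra3 was at 2.60 and 56.6 CPM, and the protease inhibitor Spint1 at 41.6 and 230 CPM.

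The chemokines of the list behaved unevenly, and single cells carried much of some sums. Ccl17, a ligand of Ccr4 that dendritic cells secrete, was at 47.7 CPM in the control against 271 in the MC38 library. Of its control UMIs 76.4% came from 1 cell, and it was found in 4.64% of control and 31.4% of MC38 members. In cDC1 it was at 1.04 and 212 CPM. Cxcl9, which attracts T cells through Cxcr3, was at 31.2 and 221 CPM, but 54.2% of control and 79.9% of MC38 UMIs came from 1 cell each, with a UMI in 8.25% and 12.4% of members. Ccl5 was lower, at 200 and 31.0 CPM, with 36.2% of its control UMIs in 1 cell.

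**Figure D3:**
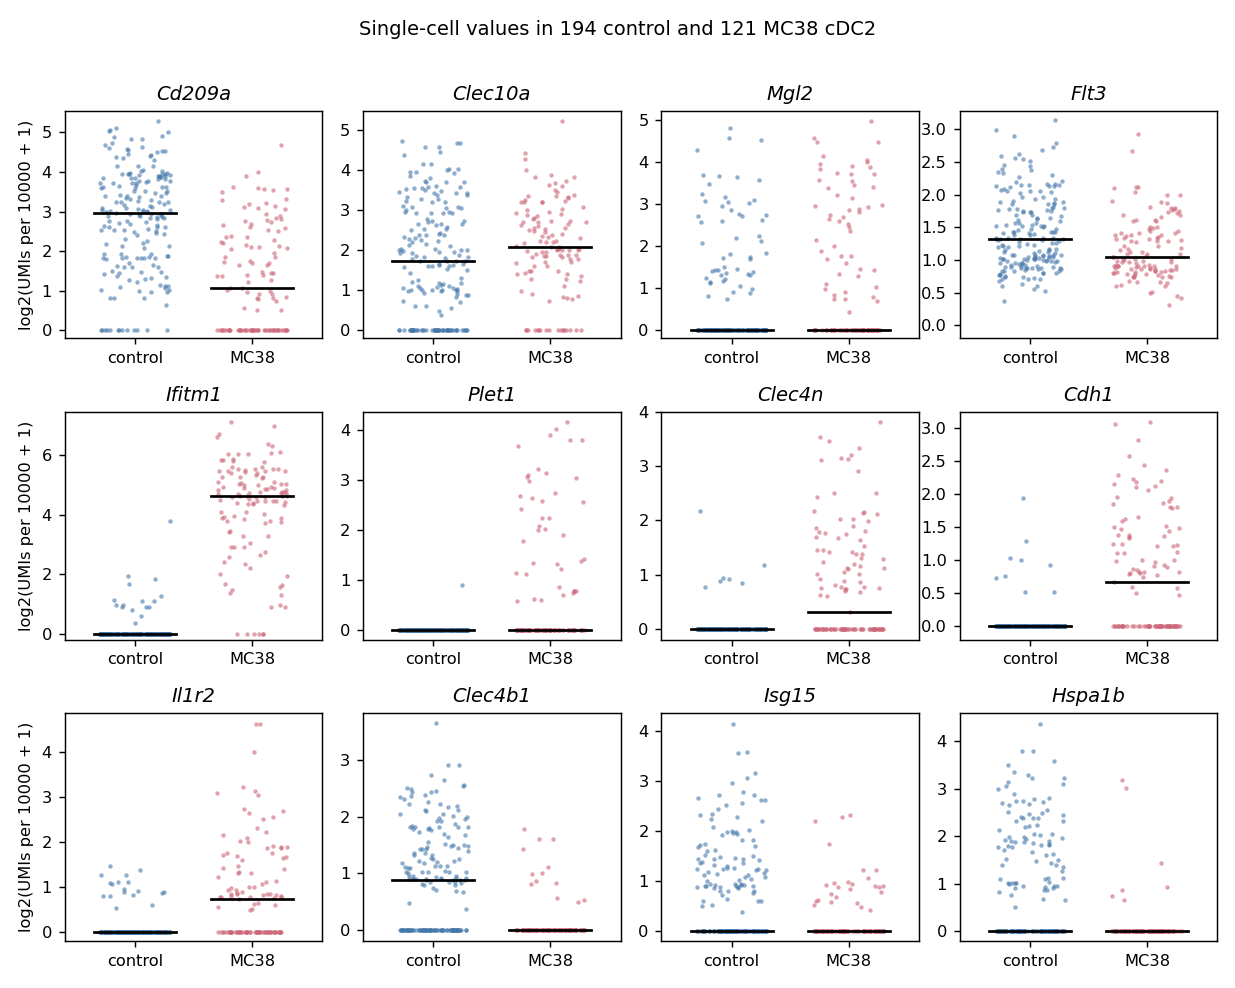
UMIs per 10000, as log2(value + 1), in each of 194 control (blue) and 121 MC38 (red) cDC2 for 12 genes, with medians as black lines. Ifitm1 is at 0 in most control cells and high in most MC38 cells, Plet1 is high in a part of the MC38 cells, and Clec4b1, Isg15 and Hspa1b are detected in more control cells.

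Stress and interferon genes led the lower side. The heat shock proteins Hspa1a and Hspa1b, which help refold damaged proteins, are a near-identical pair whose counts are uncertain one against the other. Hspa1b was at 173 CPM in the control against 11.6 in the MC38 library, a log2 ratio of -3.90 (-4.65 to -3.24), with a UMI in 46.9% and 5.79% of members. Hspa1a was at 163 and 28.0 CPM, a log2 ratio of -2.54 (-3.02 to -2.10). In B cells Hspa1b was likewise lower, at 53.0 and 3.83 CPM. Of 22 heat shock and chaperone genes compared, 3 were lower and 0 higher, beside 2.15% and 4.26% over all genes compared. The third of the lower genes was Hsph1, and the list median log2 ratio was 0.06.

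Clec4b1, a C-type lectin on chromosome 6, which also carries Clec4n, was at 125 CPM in control and 12.8 in MC38 cDC2, a log2 ratio of -3.29 (-4.01 to -2.65). It was found in 58.8% and 10.7% of members and in 0.889% and 0.221% of B cells. Its relatives Clec4a1 and Clec4a3 were at 116 and 46.2, and at 125 and 57.8 CPM. Of 16 C-type lectins compared, 3 were higher and 4 lower, beside 4.26% and 2.15% over all genes compared. The gate genes Mgl2 and Cd209a were among them.

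Part of the genes known to respond to type I interferon was lower. Of 26 on the list compared, 9 were at least 2-fold lower, 17 were not past 2-fold and 0 were higher. Of all genes compared 2.15% were lower and 4.26% higher. The list median log2 ratio was -0.80, beside 0.03 over all genes compared. The viral RNA sensor Oas3 was at 55.9 CPM in the control against 4.26 in the MC38 library (log2 ratio -3.72, -5.06 to -2.63). The ubiquitin-like Isg15 was at 126 and 26.8 CPM (log2 ratio -2.24), with a UMI in 47.9% and 21.5% of members. Ifi27l2a was at 750 and 173 CPM and Irf7, a transcription factor that amplifies interferon production, at 94.5 and 28.6. Ly6e had a log2 ratio of 0.34, and Ifitm1, also interferon-induced and higher, was counted in another list. The rest of the lower genes were Ifit2, Ifit3, Rtp4, Xaf1 and Oas1a. Lower values were found in other cells too: in classical monocytes Isg15 was at 206 and 36.1 CPM, and in cDC1 the 18 list members compared had a median log2 ratio of -0.87, beside 0.0012 over the 5308 genes compared there.

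The promoter sequences of 2 of these genes, of Ifitm1 and of the heat shock pair are shown because they are the starts of genes that differed widely in opposite directions. They run from 250 bases before to 50 bases after the RefSeq start site (build GRCm38.p6). Capitals in Isg15 and Oas3 mark an interferon-type element, searched on both strands as GAAA, any 2 bases, GAAA, which 3.43% of 32817 promoters hold. In Isg15, on the minus strand of chr4:156200769-156201068, 3 overlapping matches start at -78, -72 and -66 from the start site. Oas3, on the minus strand of chr5:120777610-120777909, has 1 match at -75, and Ifitm1, on the plus strand of chr7:140967826-140968125, holds none in this window. The promoter of Irf7, searched in the same way and not printed, holds none either, although Irf7 was lower like Isg15 and Oas3. Capitals in Hspa1a and Hspa1b mark a heat shock type element, GAA, any 2 bases, TTC or its mirror TTC, any 2 bases, GAA, which 15.1% of promoters hold. Each has 1 match at -104, on the minus strand of chr17:34972107-34972406 and of chr17:34959189-34959488, and the pair differ at 4 of 300 positions, 1 of them in the 50 bases after the start. A match is a description of letters, not a shown binding site.
Isg15: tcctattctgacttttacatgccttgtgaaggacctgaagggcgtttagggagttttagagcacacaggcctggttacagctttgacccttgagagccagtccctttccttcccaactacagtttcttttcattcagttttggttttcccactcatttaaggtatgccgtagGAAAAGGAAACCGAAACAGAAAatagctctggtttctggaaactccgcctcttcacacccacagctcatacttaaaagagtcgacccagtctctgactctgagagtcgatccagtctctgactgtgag
Oas3: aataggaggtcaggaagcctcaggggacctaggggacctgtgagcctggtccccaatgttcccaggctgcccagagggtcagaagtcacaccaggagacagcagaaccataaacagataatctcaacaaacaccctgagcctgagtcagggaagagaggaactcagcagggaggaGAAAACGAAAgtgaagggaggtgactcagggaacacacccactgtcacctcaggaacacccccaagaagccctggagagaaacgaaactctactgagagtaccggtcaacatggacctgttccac
Ifitm1: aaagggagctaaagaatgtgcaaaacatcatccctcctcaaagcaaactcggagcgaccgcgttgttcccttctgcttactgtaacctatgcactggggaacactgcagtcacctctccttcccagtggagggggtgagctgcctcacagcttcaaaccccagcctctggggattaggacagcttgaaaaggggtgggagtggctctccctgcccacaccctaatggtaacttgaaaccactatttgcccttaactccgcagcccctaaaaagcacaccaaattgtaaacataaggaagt
Hspa1a: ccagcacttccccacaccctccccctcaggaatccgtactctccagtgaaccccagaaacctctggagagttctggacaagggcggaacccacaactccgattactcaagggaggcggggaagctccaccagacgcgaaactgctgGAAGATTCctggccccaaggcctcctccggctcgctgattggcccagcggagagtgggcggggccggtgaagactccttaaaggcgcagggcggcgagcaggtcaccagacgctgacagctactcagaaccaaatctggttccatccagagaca
Hspa1b: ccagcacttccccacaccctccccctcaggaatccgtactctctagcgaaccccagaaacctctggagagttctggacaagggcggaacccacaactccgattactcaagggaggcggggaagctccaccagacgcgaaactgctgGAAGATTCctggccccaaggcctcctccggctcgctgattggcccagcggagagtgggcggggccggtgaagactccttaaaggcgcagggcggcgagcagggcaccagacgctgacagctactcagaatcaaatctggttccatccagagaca

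Other genes on the lower side included regulators of gene expression and the cyclin Ccnd1. Klf2, a transcription factor tied to quiescence and cell trafficking, was at 349 CPM in the control against 119 in the MC38 library. Ccnd1, the cyclin of early cell cycle entry, was at 601 and 199 CPM and Zfp36, which speeds the decay of cytokine mRNA, at 297 and 108. The cell cycle list, which did not hold Ccnd1, was not lower. Of 20 of its genes compared, 3 were higher and 0 lower, beside 4.26% and 2.15% over all genes compared. The list median log2 ratio was 0.37. At least 3 UMIs of Mki67, Top2a, Birc5 and Cdk1 summed were found in 6.70% of control and 8.26% of MC38 members. Skint3, Hpgd, the enzyme that breaks down prostaglandins, and St3gal5, a ganglioside synthase, were at 72.4 and 9.73, at 88.4 and 20.7, and at 137 and 45.6 CPM. Among 20 immediate-early genes compared, 3 were higher and 3 lower, beside the same 4.26% and 2.15%, with a median log2 ratio of -0.46. Among those lower were Atf3 and Nr4a1, and among those higher Ier3 and Dusp5.

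**Figure D4:**
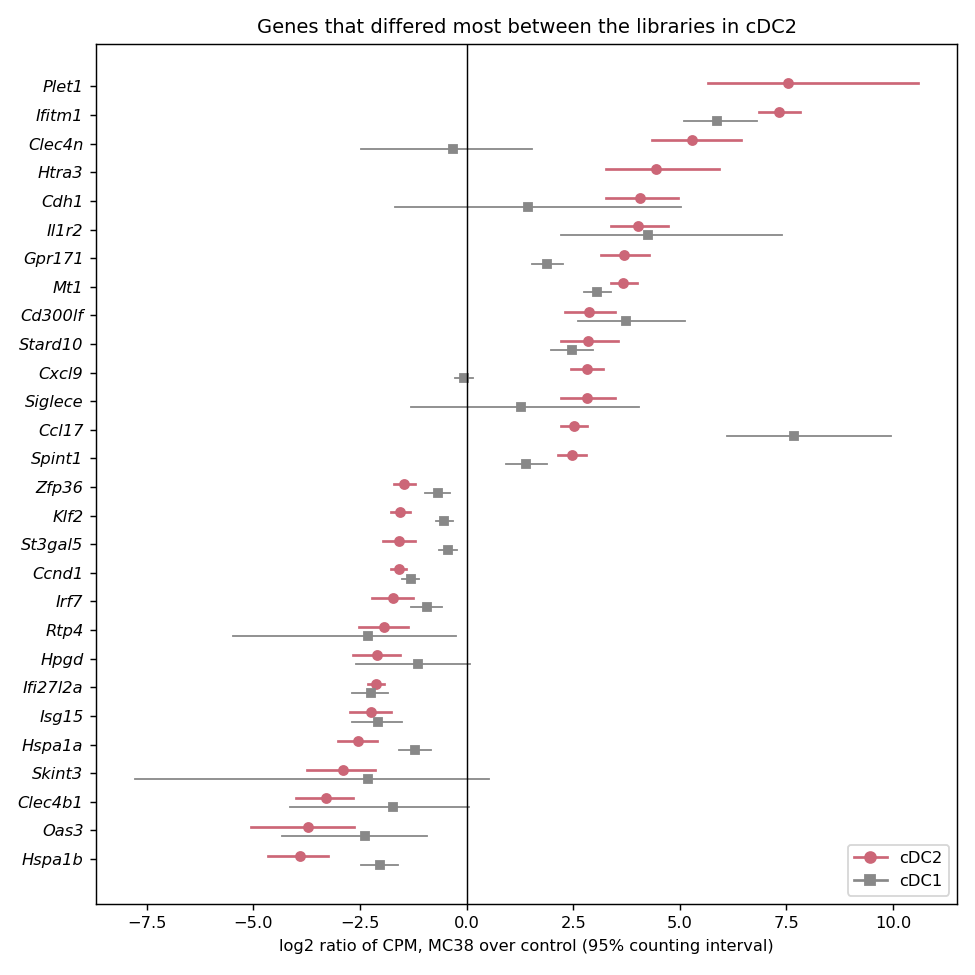
Log2 ratio of CPM, MC38 over control, for the 28 named genes in cDC2 (red circles) and in cDC1 (grey squares), with exact conditional Poisson 95% intervals; Plet1 and Htra3 have no cDC1 ratio because control cDC1 held none of their UMIs. Clec4n and Cdh1 lie far from 0 in cDC2, while their cDC1 intervals include 0.

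The MHC class II list cannot show a difference freely, because the gate required at least 20 H2-Ab1 UMIs in every member of both libraries; its values are a description. None of 15 genes compared was past 2-fold, and the median log2 ratio was 0.01. H2-Ab1, a gate gene, was at 8631 and 7896 CPM, H2-Aa at 7782 and 6426 and H2-Eb1 at 6677 and 5738. Of 18 MHC class I genes, 3 were lower, H2-T23, H2-T22 and H2-Q4, and 0 higher, with a median of -0.49. Over all genes compared, 2.15% were lower and 4.26% higher. H2-D1, a classical class I chain, was at 1835 and 1003 CPM, a log2 ratio of -0.87 (-0.95 to -0.79). Counts of these similar class I genes may be split uncertainly.

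Of 12 costimulation and maturation genes compared, 1 was higher and 0 lower, beside 4.26% and 2.15% over all genes compared. Cd86, which engages CD28 on T cells, was at 40.3 and 102 CPM, a log2 ratio of 1.34 (0.97 to 1.72), while Cd40 and Cd83 were at 31.2 and 46.8 and at 42.0 and 55.3. In members without Alb, Fabp1 or Ttr UMIs, 84 control and 15 MC38 cells, Cd86 was at a log2 ratio of 0.55, Cd83 at -1.17 and the list median at -0.74, against 0.30 in all members. Ccr7, the receptor that guides mature dendritic cells to lymph nodes, had a UMI in 4.64% and 4.13% of members. Il12b, a subunit of interleukin 12, was not detected in either library, where 3 counts would be 1.30 and 1.82 CPM. Of the inhibitory ligands, Cd274 (PD-L1) was at 7.80 and 26.2 CPM and Pdcd1lg2 (PD-L2) at 2.60 and 14.6, both below the 20 CPM mean.

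Of 17 interferon gamma targets compared, 5 were higher, Gbp2, Gbp7, Iigp1, Cxcl9 and Fcgr1, 12 were not past 2-fold and 0 were lower. Of all genes compared 4.26% were higher and 2.15% lower. The list median log2 ratio was 0.60. The median was 0.03 in members with over 5% and up to 10% mitochondrial UMIs and 0.13 with cells carrying macrophage or monocyte UMIs left out. Fcgr1 was under 2-fold with a 5% mitochondrial limit, at a log2 ratio of 0.93, and at 0.84 with at least 2 Flt3 UMIs. Single cells again weighed on them, with 33.5% of MC38 Gbp2 UMIs and 36.9% of MC38 Iigp1 UMIs in 1 cell. Gbp7, a guanylate-binding protein, was at 25.1 and 76.0 CPM.

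Among receptors for migration, Ccr1 was at 19.5 and 113 CPM, with a UMI in 13.9% and 66.1% of members. Ccr2, which brings monocytes and their kin out of the marrow, was at 649 and 592 CPM. Of 11 genes compared on this list, 4 were higher and 0 lower. Plet1, described above, was counted among the 4, as was Ccr1. Over all genes compared 4.26% were higher and 2.15% lower, and the list counts of this paragraph stand beside those shares. The glycolysis list had 5 of 18 higher and 1 lower with a median of 0.74; the glucose transporter Slc2a1 was at 13.9 and 42.6 CPM. Of 15 apoptosis genes compared, 3 were higher, Bcl2a1a, Bcl2a1b and Bcl2l11, and 1 lower, Bid. Bcl2l11, the death-promoting Bim, was at 23.8 and 76.0 CPM. In members with a Cd209a UMI, Bcl2a1a was at 18.8 and 76.2 CPM and Bcl2a1b at 97.2 and 225. Bid was at 39.0 and 15.0 CPM in those members. The 15 cathepsins and related genes had 2 higher, Ctsd and Ctsl, and 0 lower. Cst3, the cathepsin inhibitor cystatin C, was just under the limit, at 4042 and 8060 CPM.

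Dendritic cell transcription factors were mixed. Of 19 compared, 3 were higher and 2 lower, beside 4.26% and 2.15% over all genes compared. Their median log2 ratio was 0.05. Id2, a regulator of dendritic cell development, was at 352 and 736 CPM, and Bhlhe40 at 75.4 and 178. Klf4, which acts in a part of cDC2, was at 240 and 126 CPM, a log2 ratio of -0.93 (-1.17 to -0.70), and Notch2, at 67.2 and 31.6, was lower.

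**Figure D5:**
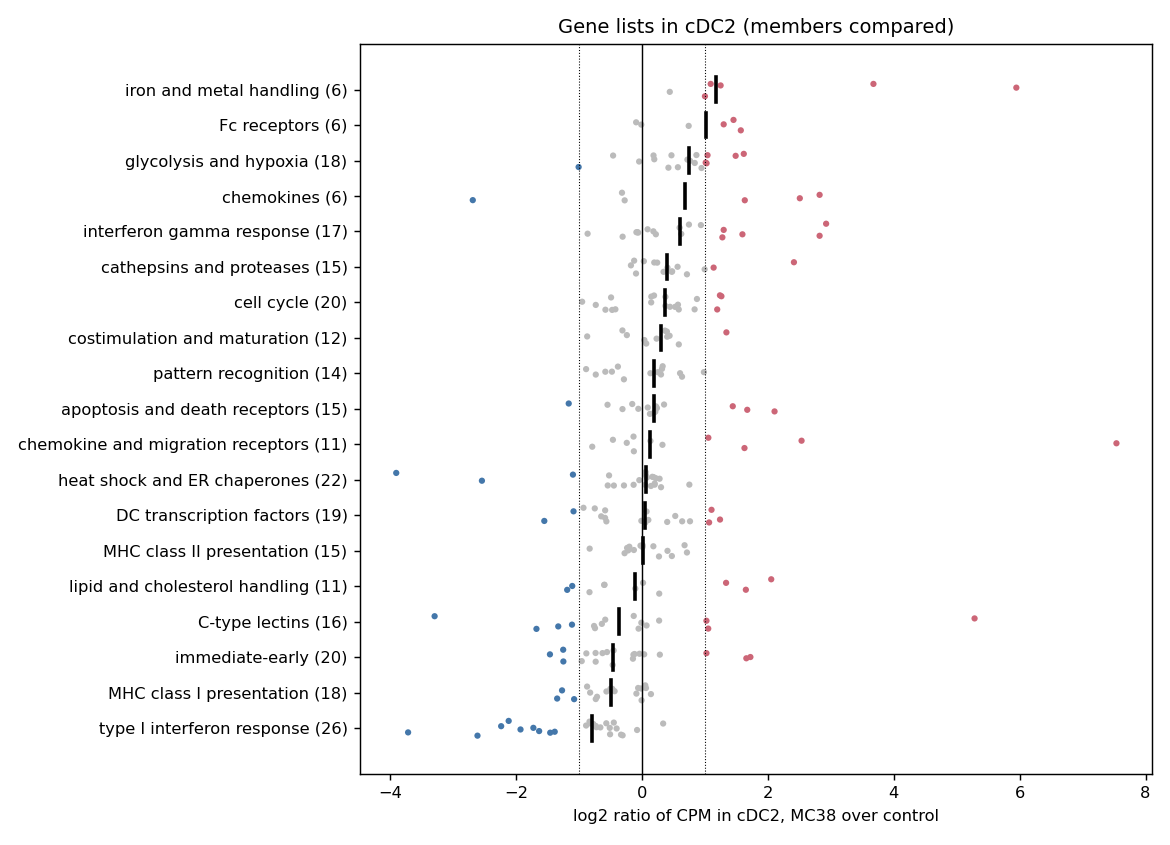
Log2 ratio of CPM in cDC2, MC38 over control, for the compared members of 19 gene lists (number compared in brackets), with black ticks at list medians and dotted lines at 2-fold. Points past 2-fold are red when higher in MC38 and blue when lower, and the type I interferon list has the lowest median at -0.80.

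The MC38 members were not uniform. Those with a Plet1 UMI, 41 of 121, had Cst3 at 13261 CPM against 4892 in the other 80, and Itgae, the CD103 integrin, at 114 against 10.8. Lyz2, the lysozyme of myeloid cells, was at 1288 CPM in members with a Plet1 UMI and at 3175 in those without. The Mgl2-positive members showed the same lean, with Plet1 at 296 CPM in 55 cells and 37.3 in the 66 without Mgl2, and Ccl17 at 508 and 54.8. Ifitm1 was less tied to either split, at 3272 and 2237 CPM with and without Plet1. These cells were divided by values measured in them and the splits were not matched for depth, so the figures are a description. Restricted to members with a Cd209a UMI, 181 control and 75 MC38 cells, Ifitm1 was at 17.4 and 2512 CPM, Plet1 at 0.939 and 154 and Clec4n at 4.22 and 120.

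RNA of other cell types moved with the library, and its part in the results was not tested beyond the values given here. Summed hepatocyte markers in cDC2, 9 of 10 detected in each library, were at 349 CPM in the control against 1022 in the MC38 library, and over all kept barcodes at 485 and 4469. Macrophage markers, 10 of 10 detected, were at 493 and 1247 CPM, and neutrophil markers at 22.1 and 601, with Retnlg and Ly6g at 0 in the control. Other lists were lower: NK or ILC markers were at 104 and 5.47 CPM, T cell markers at 41.6 and 8.51 and nonclassical monocyte markers at 289 and 146. Of the NK or ILC marker UMIs 89 lay in 1 control member, and the median per control member was 0. The chemokine Ccl5, which T and NK cells also make, was lower too, with 167 of its UMIs in 1 control member. A link between Ccl5 and these lists was not tested.

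Several genes past 2-fold stood near the level of B cells per droplet. Arg1, the arginine-degrading enzyme of myeloid cells, averaged 1.19 UMIs per MC38 cDC2 and 1.18 per MC38 B cell, and Chil3 7.67 and 6.78. S100a8, a neutrophil protein, averaged 3.74 and 4.08. With cells thinned to 2000 UMIs, Arg1 was found in 14.0% of MC38 cDC2 and 19.6% of MC38 B cells, Chil3 in 14.9% and 19.8%, and S100a8 in 5.79% and 9.65%. The cDC2 shares were below those of B cells. Thinning removed more from MC38 cDC2 (median 12414 UMIs) than from MC38 B cells (3113), so these shares cannot decide whether cDC2 express the genes. That was not tested, and no expression by cDC2 is read from these values. The UMIs were uneven, with 37.1% of those of S100a8 and 29.2% of those of Arg1 in 1 MC38 member. The metallothionein Mt1, which binds zinc, was at 42.9 and 549 CPM in cDC2 and averaged 7.46 UMIs per MC38 cDC2 against 3.81 per MC38 B cell; it was also higher over all kept barcodes, at 34.5 and 1813 CPM. Fcgr3 averaged 1.94 UMIs per MC38 cDC2 against 0.601 per B cell, and Stard10 1.02 against 0.722. By contrast Ifitm1 averaged 35.7 UMIs per MC38 cDC2 and 0.349 per B cell, and Plet1 2.19 and 0.00442. In members without any Alb, Fabp1 or Ttr UMI, 84 control and 15 MC38 cells, Ifitm1 was at 31.9 and 2464 CPM and Mt1 at 47.8 and 299.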

How the data were processed

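The raw UMI counts per gene and barcode were deposited by the authors as 1 matrix per library, not normalized, and per the file headers these are whole counts. Per the submitters' processing notes, bcl2fastq, STAR, Cell Ranger 2.2, Seurat 2.3.4 and R 3.6.0 were used with build GRCm38.p6; the matrix header names software version 3.0.2.

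Kept barcodes had 200 or more genes and no more than 20% mitochondrial UMIs. The members and gene lists were chosen with earlier results of these data known. UMIs were summed over the members of each library and scaled to CPM, and MC38 over control ratios have exact conditional Poisson 95% intervals (scipy 1.17.1). The intervals were tested on simulated Poisson sums only. Those sums lack unevenness between cells, so the test cannot show how the intervals hold where few cells carried most UMIs. With 1 library per group no test, standard error or p-value was computed. Genes with a mean of at least 20 CPM were compared. Named genes had at least 50 CPM and were in 10% of members of the higher library, reached 25% of the CPM over all kept barcodes, and ranked among the first 14 per direction by the interval end nearest 0; 8 per direction were named against cDC1. Classes of other genes, such as markers of other cells, were left out of that ranking, and the 2 highest and lowest of each list and a fixed gene list were added. Any gene named outside this rule, such as further members of a list, was chosen after its values were seen. For shares across depths each cell was thinned to 2000 UMIs; 28 control and 109 MC38 B cells were too shallow for this and no cDC2 was. Doublets were called with scanpy 1.11.5. A count of 3 was the floor for undetected genes. Values of some genes are not reported here.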

Additional observations from a re-analysis of the deposited data

How the results depend on the processing

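The cDC2 share ratio stayed below 0 in every setting tried. It was -2.27 with a mitochondrial limit of 10%, -2.65 with 5%, -1.22 with no limit and -2.17 with members carrying macrophage or monocyte UMIs left out. Over barcodes with at least 20 H2-Ab1 UMIs it was -0.74, and over barcodes with a Ptprc UMI -1.09. The numbers of genes higher and lower depended on the cutoffs: 551 and 372 after thinning to 2000 UMIs, 104 and 46 at a mean of at least 50 CPM, 597 and 381 at 5 CPM, 556 and 418 at 1.5-fold and 108 and 25 at 3-fold. With a 5% mitochondrial limit 255 genes were lower. In members without Alb, Fabp1 or Ttr UMIs, a setting chosen after seeing the data, 459 were higher and 379 lower, from 84 control and 15 MC38 cells. Cxcl9 changed direction, to -1.28 in members with over 5% and up to 10% mitochondrial UMIs and to -0.079 in members without those hepatocyte UMIs, both added after seeing the data; 1 cell held most of its MC38 UMIs. With macrophage or monocyte UMIs left out Cxcl9 was at 0.09, and after thinning St3gal5 was at -0.96, both under 2-fold. Mgl2, a gate gene, was at 0.0049 with a 5% mitochondrial limit. The cause of the other shifts was not tested. Over all settings the log2 ratio of Ifitm1 ranged from 6.18 to 9.11, of Clec4n from 4.78 to 7.41, of Hspa1b from -5.99 to -2.61 and of the type I interferon median from -1.15 to -0.51. No paired analysis was possible because each group is 1 library. With no replicate library, spread between mice cannot be given, and genes under about 20 CPM rest on few UMIs.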
